A study of Homo sapiens with 18 samples.

Results

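FOXO factors and genes that respond to insulin or glucocorticoid were followed in Hep3B cells, a human hepatoma line. The 10 genes were IGFBP1, PCK1, G6PC1, IRS2, PIK3IP1, TSC22D3, DEPP1, CITED2, FOXO1 and FOXO3, out of 36684 gene symbols in the count table. They were chosen by name from a list drawn up with the levels and fold changes of these libraries known, so their own values are a description and carry no test. PCK1 did not pass the filter on low counts, and the other 9 were among the 14557 genes tested.

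The cells fell into 6 groups of 3 libraries. Con was the control without added fatty acid. The model (Model) received free fatty acid (FFA), used to load hepatocytes with lipid. FUCO-0.5, FUCO-1 and FUCO-2 received FFA and 0.5, 1 or 2 μM of fucoxanthin (FUCO), a marine carotenoid. RES received FFA and Resmetirom, an agonist of the thyroid hormone receptor β. All 5 groups other than Con therefore carried FFA, and every comparison with the model used the same 3 model libraries. The study describes the 3 libraries of each group as biological replicates. The FFA concentration, the RES dose and the treatment times of these libraries are not given in the sources used here. All cells were of 1 line.

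FOXO factors are transcription factors that insulin holds in check. Insulin activates PI3K and AKT, AKT phosphorylates FOXO proteins, and the phosphorylated proteins leave the nucleus. When insulin is low, FOXO1 and FOXO3 turn on genes of glucose production, of insulin sensing and of stress resistance in the liver, and glucocorticoids acting through their receptor NR3C1 drive several of the same genes. FOXO activity is set largely by where the protein sits, so the FOXO mRNA level is one input among several.

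Sequence upstream of the start sites was taken from RefSeq (GRCh38.p14), in which 8 of the 10 genes matched. IGFBP1 and PCK1 were not matched. Windows of 300 bases around each start site were searched on both strands for the FOXO motif GTAAACA, the insulin response motif CAAAACA and the palindromic glucocorticoid response element. No matches overlapped. A gene can have several start sites, and the 8 genes had 17 windows. The FOXO motif was found in 3 of the 17, 1 each of DEPP1, TSC22D3 and PIK3IP1, and in 3.42% of all 35116 windows. The insulin response motif was found in 1, of IRS2, and in 4.92% of all windows. The glucocorticoid motif was found in none of the 17 and in 0.00285% of all windows. A match is a run of letters and not a known site. Printed here are the 250 bases before the start site, 5′ to 3′ on the strand of the gene and with any match in capitals, for DEPP1 and TSC22D3 (FOXO motif, lower with FUCO), IRS2 (insulin response motif) and CITED2 (no match, lower with FUCO). In DEPP1 the match lay at -180 to -174 from the start site, in TSC22D3 at -147 to -141 and in IRS2 at -40 to -34, the last 2 on the opposite strand. The PIK3IP1 match, at 17 to 23 after the start site, falls outside the printed stretch. The TSC22D3 window precedes an internal start site within the gene.
DEPP1 (chr10:44978810-44979059, minus strand): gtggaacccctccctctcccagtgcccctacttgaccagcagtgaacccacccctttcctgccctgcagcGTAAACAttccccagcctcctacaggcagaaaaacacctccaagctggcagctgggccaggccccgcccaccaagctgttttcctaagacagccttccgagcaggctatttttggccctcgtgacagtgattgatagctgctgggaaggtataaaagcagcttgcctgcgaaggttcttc
TSC22D3 (chrX:107717063-107717312, minus strand): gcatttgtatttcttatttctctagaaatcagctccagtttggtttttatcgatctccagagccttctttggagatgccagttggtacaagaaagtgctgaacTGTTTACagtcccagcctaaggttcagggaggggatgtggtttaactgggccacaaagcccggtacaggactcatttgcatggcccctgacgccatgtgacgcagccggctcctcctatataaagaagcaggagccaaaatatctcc
IRS2 (chr13:109786584-109786833, minus strand): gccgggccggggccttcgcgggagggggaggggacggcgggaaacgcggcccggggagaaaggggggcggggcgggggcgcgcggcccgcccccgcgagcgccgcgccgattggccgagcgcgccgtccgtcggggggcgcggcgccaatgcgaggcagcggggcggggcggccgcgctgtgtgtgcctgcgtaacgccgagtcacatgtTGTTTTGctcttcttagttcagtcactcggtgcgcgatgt
CITED2 (chr6:139374649-139374898, minus strand): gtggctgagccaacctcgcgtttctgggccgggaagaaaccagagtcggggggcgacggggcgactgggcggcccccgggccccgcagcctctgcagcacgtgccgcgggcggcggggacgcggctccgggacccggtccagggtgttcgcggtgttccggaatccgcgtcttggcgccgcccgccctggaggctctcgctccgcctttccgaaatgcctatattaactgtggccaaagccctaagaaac

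Library totals ran from 16916688 to 23083498 counts. On the first principal component of log2 CPM the RES libraries lay between 61.6 and 64.3, and the other 15 between -23.7 and 0.297. Con replicate 1 lay apart from the other 2 Con libraries on the second component (21.0 against 34.6 and 31.8), and values without it are given for IGFBP1, PIK3IP1, TSC22D3 and FOXO1. Hepatocyte markers were present throughout: the summed level of 10 markers was 62679 to 70562 CPM in Con, 51996 to 52467 in the model, 43481 to 54559 at 0.5 μM, 46232 to 48759 at 1 μM and 35149 to 39430 at 2 μM FUCO, and 15199 to 15614 with RES. At an adjusted p under 0.05 in edgeR's test, 5 of these 10 markers were lower in the model than in Con, where 17.6% of all tested genes were called. Against the model none was called at 0.5 μM FUCO, 1 was lower at 1 μM and 8 were lower at 2 μM. With RES 8 were lower and 1 was higher. Of all tested genes 1.45%, 3.21%, 20.5% and 49.4% were called in these 4 comparisons with the model. Over 10 markers of immune, endothelial, stromal and biliary cells the sum was 4.12 to 5.95 CPM in Con, 7.24 to 7.64 in the model, 5.13 to 7.72 with FUCO and 14.1 to 16.8 with RES, mostly CD14, and ACTA2 was at 0 counts in all. The part of the hepatocyte marker levels in the values below was not tested. Less RNA per cell and fewer cells of a kind cannot be told apart in bulk libraries.

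Levels are given as CPM, the library-scaled counts after TMM scaling, and changes as log2 fold changes from edgeR's quasi-likelihood fit of all 18 libraries, with ± for the SE. A gene is said to have passed when its Benjamini-Hochberg adjusted p was under 0.05. For the 10 listed genes that word only counts, since the groups were known when the list was made. Set against the length of their merged exons, CITED2 (42.7 CPM per kb) and IRS2 (21.2) were the most abundant of the 10 in the model, FOXO3 (9.99) was above FOXO1 (3.27), and G6PC1 (0.0965) was near the limit of detection. With RES IGFBP1 (73.7) was above CITED2 (39.3) and IRS2 (14.01), and IRS2 was above CITED2 at 1 μM (18.3 against 15.7) and 2 μM FUCO (26.4 against 16.6).

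CITED2, TSC22D3 and DEPP1 were lower at every FUCO dose than in the model, where the log2 fold changes of FOXO1 and FOXO3 ran from -0.22 to 0.07. IGFBP1 was lower at 0.5 μM FUCO and 12.3-fold higher with RES. PIK3IP1 was lower with FFA alone than without it, and lowest with RES. The plot of all libraries shows these levels.

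**Figure D1:**
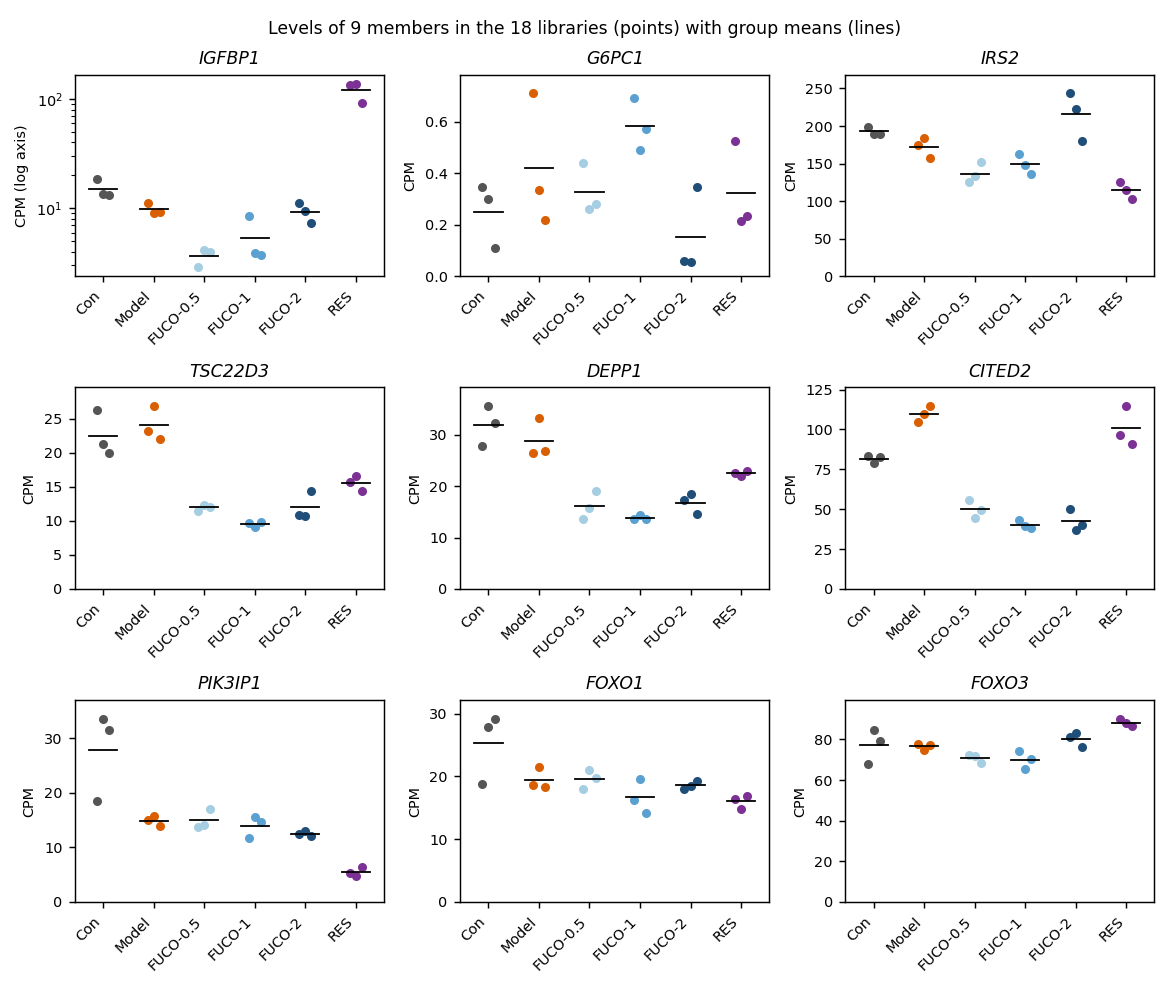
Level of 9 of the genes in CPM (y axis; a log axis for IGFBP1 only) in the 3 libraries of each of 6 groups (points), with the group mean (line). For CITED2, TSC22D3 and DEPP1 the 9 FUCO libraries lie below the 3 model libraries, and for IGFBP1 the 3 RES libraries lie above all others.

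IGFBP1 (chr7:45888488-45893660, plus strand) encodes a secreted binding protein that holds IGFs, and insulin represses it in the liver. It stood at 18.6, 13.5 and 13.2 CPM in the Con libraries and at 11.1, 9.07 and 9.26 in the model. FUCO gave 2.91, 4.13 and 3.96 at its lowest dose, 8.47, 3.88 and 3.71 at the middle dose and 11.2, 9.42 and 7.29 at the highest. With RES it stood at 134, 138 and 91.5. The 3 RES libraries were therefore far above all others, the Con and model libraries did not overlap, and the FUCO libraries overlapped the model only at 2 μM. Relative to the model the log2 fold change was -1.42 (95% interval -1.95 to -0.88) at 0.5 μM, -0.85 (95% interval -1.35 to -0.35) at 1 μM and -0.07 (95% interval -0.54 to 0.39) at 2 μM. With RES it was 3.62 (95% interval 3.21 to 4.04), a 12.3-fold higher level than in the model and an 8.02-fold higher one than in Con. Replicate 1 at 1 μM stood apart from the other 2 of its group. Without it, the log2 fold change at 1 μM against the model was -1.36, and that of 2 μM against 1 μM was 1.29 in place of 0.78. Between the model and Con the value was -0.62 ± 0.21 (SE), and -0.45 without Con replicate 1.

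The rate-limiting gluconeogenic genes of the list were almost silent in these cells. PCK1 (chr20:57561110-57568121), the cytosolic enzyme that commits carbon to glucose, had 1 count in Con replicate 1 and 0 in the other 17 libraries. A count of 0 allows up to 3 counts, 0.121 to 0.179 CPM across libraries, and covers counting error only. G6PC1 (chr17:42900799-42914438), which releases free glucose from glucose 6-phosphate, had 6, 5 and 2 counts in Con, 13, 6 and 4 in the model and 13, 4 and 5 with RES. FUCO gave 8, 5 and 5 counts at its lowest dose, 14, 9 and 10 at the middle dose and 1, 1 and 6 at the highest. Each of these groups overlapped the model, and the intervals against the model were wide, such as -1.45 (95% interval -2.77 to -0.12) at 2 μM and -0.31 (95% interval -1.37 to 0.75) with RES. The value at 2 μM was -2.79 without its replicate 3, and at 0.5 μM it changed from -0.36 to 0.24 without model replicate 1. The value with RES was 0.29 without that library and -0.88 without RES replicate 1. At 2 against 1 μM, where the libraries did not overlap, the value was -1.93 (95% interval -3.16 to -0.70), and -3.26 without FUCO-2 replicate 3.

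IRS2 (chr13:109752695-109786583, minus strand) encodes the adaptor that links the insulin receptor to PI3K, and it is induced by FOXO when insulin is low. It stood at 199, 189.9 and 189.9 CPM in Con and at 175, 185 and 158 in the model. FUCO gave 125, 133 and 152 at its lowest dose, 162, 149 and 136 at the middle dose and 244, 222 and 179 at the highest. With RES it stood at 125, 115 and 102. The order of the group means ran from 2 μM FUCO through Con, the model, 1 μM and 0.5 μM to RES, and of the neighbours in that order only Con and the model did not overlap. The log2 fold change against the model went from -0.34 ± 0.10 at 0.5 μM to 0.32 ± 0.099 at 2 μM, and 2 μM exceeded 1 μM by 0.53 (95% interval 0.32 to 0.73). Over the libraries left out in turn the value at 2 μM ran from 0.22 to 0.43, and it no longer passed without model replicate 1 or 3 or FUCO-2 replicate 1 or 2. With RES the log2 fold change was -0.59 ± 0.10. Among the FUCO doses IRS2 and IGFBP1 both had their lowest mean at 0.5 μM and their highest at 2 μM, and with RES IGFBP1 was above the model and IRS2 below it.

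PIK3IP1 (chr22:31281593-31292534, minus strand) encodes a membrane protein that restrains PI3K. Its levels were 18.4, 33.6 and 31.5 CPM in Con and 14.9, 15.8 and 13.97 in the model. The 9 FUCO libraries lay between 11.7 and 17.1. With RES the levels were 5.33, 4.68 and 6.44, below all other libraries. Between the model and Con the log2 fold change was -0.90 (95% interval -1.23 to -0.58), and -1.13 without Con replicate 1, the lowest of the 3 Con libraries. It was 0.00 ± 0.16, -0.10 ± 0.16 and -0.26 ± 0.17 at the 3 FUCO doses against the model and -1.44 (95% interval -1.80 to -1.07) with RES. The mean level with RES was 36.8% ± 5.95 (SD) of that of the model.

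CITED2 (chr6:139371807-139374648, minus strand) encodes a coactivator-binding protein that restrains hypoxia signalling and is a known FOXO target. It stood at 83.2, 78.8 and 82.9 CPM without FFA and 105, 109.7 and 114 in the model. The rising FUCO doses gave 55.6, 44.4 and 49.8, then 43.3, 39.7 and 38.04, and then 50.3, 37.3 and 40.3. With RES it stood at 96.5, 115 and 90.8. The model libraries lay above those of Con and the FUCO libraries below both, whereas RES overlapped the model. The log2 fold change was 0.42 ± 0.099 between the model and Con, and -1.13 ± 0.10, -1.44 ± 0.10 and -1.36 ± 0.10 at the rising FUCO doses against the model. The mean level was 45.6% ± 5.11, 36.8% ± 2.47 and 38.9% ± 6.25 (SD) of that of the model. The difference between 2 and 1 μM was 0.08 (95% interval -0.14 to 0.29), and that of RES from the model was -0.12 (95% interval -0.32 to 0.08).

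TSC22D3 (chrX:107713221-107775988, minus strand), also called GILZ, is a leucine zipper protein that glucocorticoids and FOXO factors induce and that restrains inflammatory transcription. It stood at 26.3, 21.3 and 20.01 CPM without FFA and 23.1, 26.9 and 22.1 in the model. The rising FUCO doses gave 11.5, 12.4 and 12.1, then 9.71, 9.07 and 9.77, and then 10.9, 10.7 and 14.5. With RES it stood at 15.7, 16.5 and 14.5. Con and the model overlapped, every FUCO and RES library lay below both, and the 1 μM libraries were the lowest. Its log2 fold change from the model was -1.01 ± 0.12, -1.34 ± 0.12 and -1.002 ± 0.12 at the rising doses, and -0.63 ± 0.12 with RES. The 2 μM libraries lay above the 1 μM libraries by 0.33 (95% interval 0.07 to 0.60) on the log2 scale, and by 0.18 without FUCO-2 replicate 3. The model differed from Con by 0.10 (95% interval -0.14 to 0.33), and by 0.22 without Con replicate 1 or 0.01 without Con replicate 3 or model replicate 2.

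DEPP1 (chr10:44976128-44978809, minus strand) is a FOXO-induced regulator of autophagy and of the handling of reactive oxygen. It stood at 27.8, 35.6 and 32.3 CPM without FFA and 26.5, 33.3 and 26.8 in the model. The rising FUCO doses gave 13.6, 15.8 and 18.98, then 13.5, 14.3 and 13.6, and then 17.2, 18.5 and 14.6. With RES it stood at 22.6, 22.02 and 22.9. All FUCO libraries lay below all RES libraries, and these lay below all model libraries. For DEPP1 the model-relative log2 fold change was -0.84 ± 0.12, -1.06 ± 0.12 and -0.78 ± 0.12 at the rising doses, and -0.36 ± 0.11 with RES, where it was -0.24 and no longer passed without model replicate 2. DEPP1 overlaps RASSF4, which stood at 37.9 CPM in the model and 38.9, 36.3 and 34.4 at the 3 doses, and at 27.9 with RES, where DEPP1 was at 77.98% ± 1.56 (SD) of the model. Reads of the overlap cannot be told apart if the counting ignored strand.

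**Figure D2:**
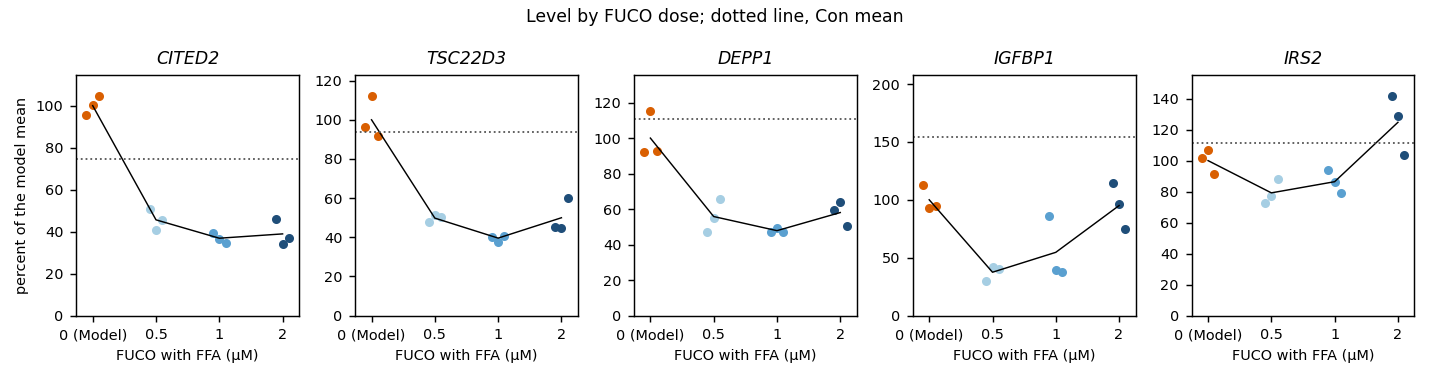
Level of 5 of the genes in percent of the model mean (y axis) against the FUCO dose given with FFA (x axis, μM), with 3 libraries per dose (points), their mean (line) and the Con mean (dotted). CITED2, TSC22D3 and DEPP1 sit between 34.0% and 65.7% at 0.5, 1 and 2 μM. Among these doses the means of IGFBP1 and IRS2 are lowest at 0.5 μM and highest at 2 μM. At 2 μM the IRS2 mean lies above the model mean and the IGFBP1 mean does not.

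FOXO1 and FOXO3 encode the main FOXO factors of the liver. FOXO1 (chr13:40555667-40666641, minus strand) stood at 18.8, 27.8 and 29.2 CPM in Con and 18.6, 21.4 and 18.4 in the model. The 9 FUCO libraries lay between 14.2 and 21.0, and the RES libraries were at 16.4, 14.8 and 16.9. FOXO1 overlapped between Con and the model through Con replicate 1. The log2 fold change between them was -0.38 ± 0.13, and -0.55 without that library. Against the model it was 0.01 (95% interval -0.26 to 0.28), -0.22 (95% interval -0.50 to 0.05) and -0.07 (95% interval -0.34 to 0.20) at the rising FUCO doses and -0.28 (95% interval -0.55 to -0.01) with RES. FOXO3 (chr6:108559825-108684774, plus strand) lay between 67.7 and 84.6 CPM in Con and between 74.9 and 77.6 in the model. It lay between 65.3 and 83.2 in the FUCO libraries and at 90.3, 88.03 and 86.5 with RES. FOXO3 in the 0.5 and 1 μM libraries lay below the model libraries. At 2 against 1 μM, where the libraries did not overlap, FOXO3 was higher by 0.20 (95% interval 0.04 to 0.35) on the log2 scale and did not pass. Its log2 fold change from the model was -0.11 (95% interval -0.27 to 0.05), -0.13 (95% interval -0.29 to 0.03) and 0.07 (95% interval -0.09 to 0.22) with FUCO and 0.20 ± 0.075 with RES, which no longer passed when any 1 of the model libraries or RES replicate 1 or 2 was left out. It was -0.01 between the model and Con, with a sign that turned when single libraries were left out (-0.10 to 0.06). FOXO3 has a near-identical copy, FOXO3B, at 8.996 to 11.3 CPM in group means. With the counts of both added, the value with RES was 0.17.

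**Figure D3:**
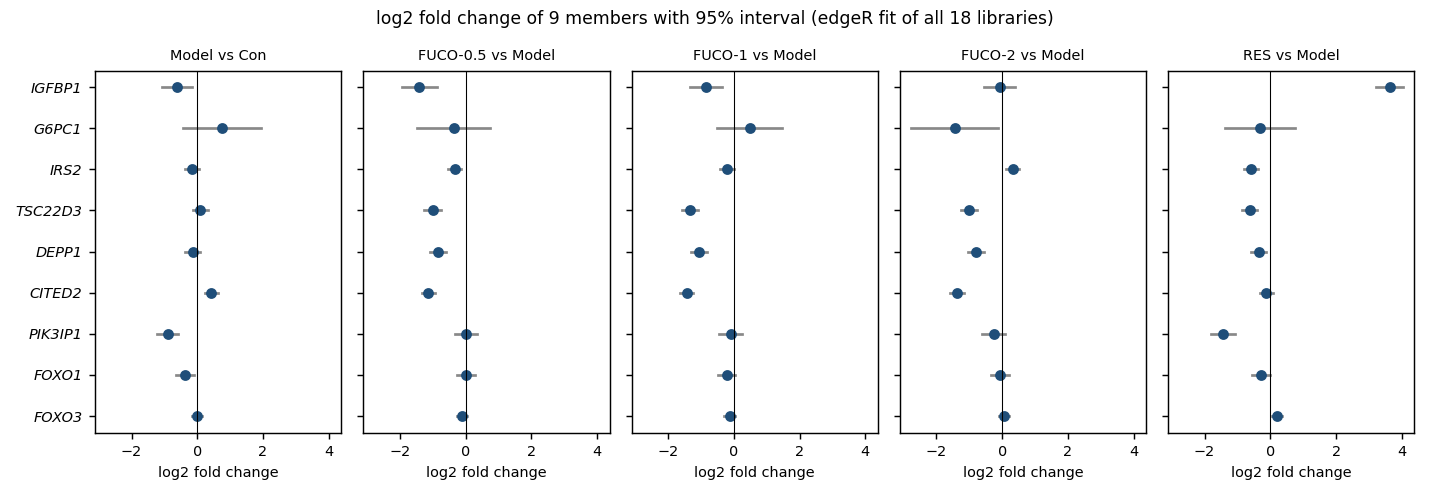
log2 fold change (x axis) of 9 of the genes with its 95% interval (lines) in 5 comparisons, from the fit of all 18 libraries. The intervals of CITED2, TSC22D3 and DEPP1 lie below 0 at each FUCO dose, and IGFBP1 with RES lies at 3.62.

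Counted over the list, 4 of the 9 tested genes passed between the model and Con, where 17.6% of all tested genes passed. CITED2 was higher, and IGFBP1, PIK3IP1 and FOXO1 were lower. At 0.5 μM FUCO 4 passed (CITED2, TSC22D3, DEPP1 and IGFBP1, all lower) where 1.45% of all genes passed and 1.16% were lower, and at 1 μM 3 passed (CITED2, TSC22D3 and DEPP1, all lower) where 3.21% passed and 2.32% were lower. At 2 μM 4 passed (the same 3 lower and IRS2 higher) where 20.5% did. With RES 6 passed (IGFBP1 and FOXO3 higher, PIK3IP1, TSC22D3, IRS2 and DEPP1 lower) where 49.4% did. Between 2 and 1 μM 1 passed (IRS2, higher) where 6.3% did. The median log2 fold change of the 9 was -0.15, -0.36, -0.22, -0.26, -0.31 and 0.20 in the 6 comparisons, and that of all tested genes was 0.014 or less in size. Since the list was made with these values known, nothing is read from the shares. The libraries did not overlap in 4, 6, 5, 4, 7 and 5 of the 9 genes in these 6 comparisons, against 35.7%, 19.6%, 23.3%, 36.3%, 64% and 20.3% of all genes. CITED2, TSC22D3 and DEPP1 passed at all 3 FUCO doses under every alternative tried. Between the model and Con, CITED2 and PIK3IP1 passed whichever library was left out. IGFBP1 no longer passed when any 1 of the 6 libraries compared was left out or with DESeq2. The same held without FUCO-0.5 replicate 1 or RES replicate 1 or 2. FOXO1 no longer passed without Con replicate 2 or 3, model replicate 1 or 3, FUCO-1 replicate 1 or RES replicate 1 or 2, or with only the 2 groups compared. Neither of them passed without the RES libraries. At 1 μM IGFBP1 did pass without FUCO-1 replicate 1 and in some other fits.

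The genes whose log2 CPM followed each member most closely over the 18 libraries were described without a test, since all libraries share their groups. DEPP1 followed TSC22D3 (Pearson r = 0.893) and HES1 (0.889), and TSC22D3 followed HES1 (0.952) and RHOB (0.909). CITED2 followed KLF2 (0.962) and DUSP1 (0.94). IGFBP1 followed NEBL (0.967) and SLC3A2 (0.954), PIK3IP1 followed FREM2 (0.974) and RAP2A (0.973), and IRS2 followed KCTD15 (0.942). FOXO1 followed SMAD2 (0.929) and MMD (0.927), and FOXO3 followed PPP1R15B (0.88) and NXPH4 (0.875). Such values can rest on the RES libraries, which lay apart from the rest. Without RES, r between IGFBP1 and IRS2 went from -0.33 to 0.81, and between IGFBP1 and PIK3IP1 from -0.64 to 0.39. Between DEPP1 and TSC22D3 it stayed near its value, at 0.898. For genes outside the list, r without RES was not computed.

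The rest of the pathway was taken as 121 genes in 6 lists that hold none of the 10, of which 104 were tested. The lists were paralogs, insulin and IGF signalling, other FOXO targets, gluconeogenesis, the glucocorticoid receptor and its targets, and insulin-induced lipogenic genes. They too were chosen with earlier results of these data known. Their shares and adjusted p values are therefore a description, and nothing is read from a share above that of all genes. Between the model and Con 18 of them rose and 20 fell (36.5%). At 0.5 μM FUCO none rose and 5 fell (4.81%), at 1 μM 1 rose and 7 fell (7.69%), and at 2 μM 12 rose and 24 fell (34.6%). With RES 24 rose and 45 fell (66.3%). At 0.5 μM the number was 8 without FUCO-0.5 replicate 2, and between the model and Con it was 40 without Con replicate 1. Of all tested genes 17.6%, 1.45%, 3.21%, 20.5% and 49.4% passed in these comparisons. The median log2 fold change of the 104 was -0.05, -0.04, -0.03, -0.08 and -0.16 in the same order, and that of all tested genes was at most 0.01 in size.

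**Figure D4:**
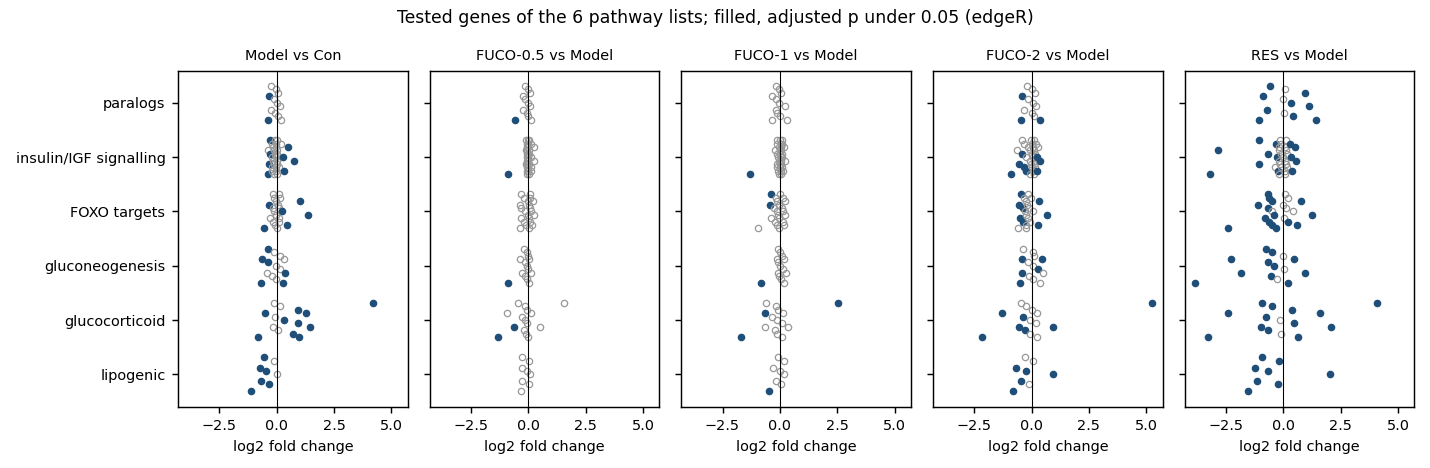
log2 fold change (x axis) of each tested gene of 6 pathway lists in 5 comparisons, with filled points for an adjusted p under 0.05 in edgeR's test and open points for the rest. Points spread most with RES, where 69 of 104 are filled, and least at 0.5 μM FUCO, where 5 are.

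INSR, the insulin receptor, lay between 84.0 and 108.1 CPM in all 18 libraries, with a log2 fold change of -0.15 ± 0.070 with RES (adjusted p = 0.0818) and from -0.05 to 0.03 in the other 5 comparisons (adjusted p = 0.858 to 0.939). INSR, the IGF receptor IGF1R and FOXO4 passed in none of these comparisons. The IGF1R value with RES was -0.10 ± 0.11 and the FOXO4 value was 0.01 ± 0.11. IRS1, the other main insulin receptor adaptor, fell with RES (-0.86 ± 0.093, adjusted p = 3.86e-08), from 92.9 ± 5.12 to 51.1 ± 2.32 CPM (SD, n = 3), beside IRS2 at -0.59. Its fall between Con and the model (-0.34 ± 0.091, adjusted p = 0.0102) was lost without Con replicate 2, Con replicate 3 or model replicate 3, over a range of -0.45 to -0.28 when single libraries were left out.

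Of 33 tested genes of insulin and IGF signalling, 4 rose and 4 fell between Con and the model, and 1 fell at 0.5 and at 1 μM FUCO. At 2 μM 3 rose and 5 fell, and with RES 5 rose and 8 fell. The share that passed was 24.2%, 3.03%, 3.03%, 24.2% and 39.4% in this order, against 17.6%, 1.45%, 3.21%, 20.5% and 49.4% of all tested genes. The 1 gene at the lower doses was TRIB1, a pseudokinase that steers protein breakdown. It stood at 180.4, 203 and 186 CPM in the model and at 105, 115 and 84.8, then 79.2, 79.5 and 73.4, and then 98.95, 91.5 and 111 at the rising doses. It fell at the lowest dose (-0.90 ± 0.099, adjusted p = 1.69e-06), the middle dose (-1.29 ± 0.10, adjusted p = 2.25e-09) and the highest (-0.92 ± 0.099, adjusted p = 5.16e-07). GRB10, an adaptor that damps the insulin receptor, fell from 138 ± 14.04 CPM in Con to 106 ± 0.374 in the model (-0.39 ± 0.074, adjusted p = 0.000628) and rose at 2 μM FUCO (0.35 ± 0.074, adjusted p = 0.00142). IGF2, the fetal growth factor that hepatoma cells often make, fell from 5124 ± 135 to 560.2 ± 33.1 CPM with RES (-3.19 ± 0.13, adjusted p = 1.95e-15), where IGFBP1 had its highest level. PIK3CB, a PI3K catalytic subunit, rose with RES (0.56 ± 0.079, adjusted p = 2.07e-06) while PIK3IP1, which restrains such subunits, was at -1.44.

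Among the paralogs, PCK2, the mitochondrial form of PCK1, was well expressed. It stood at 98.4 ± 3.88 CPM in the model, fell to 66.6 ± 1.88 at 0.5 μM FUCO (-0.56 ± 0.11, adjusted p = 0.00774) and rose to 217 ± 13.5 with RES (1.14 ± 0.11, adjusted p = 9.7e-09). The call at 0.5 μM was lost without model replicate 2 or FUCO-0.5 replicate 1, with values from -0.58 to -0.53 over the libraries left out. IGFBP4 fell with RES (-1.05 ± 0.14, adjusted p = 1.43e-06) and IGFBP3 fell at 2 μM FUCO (-0.47 ± 0.10, adjusted p = 0.00174), while TSC22D2 rose at 2 μM (0.36 ± 0.078, adjusted p = 0.00202). IGFBP4 between the model and Con (-0.37 ± 0.13, adjusted p = 0.0456) lost its call in 10 of 13 alternatives. They included DESeq2 and the fits without any 1 of the 6 libraries compared (range -0.41 to -0.31). Of 12 tested paralogs 2 fell in the model, 1 fell at 0.5 μM and none passed at 1 μM. At 2 μM 1 rose and 2 fell, and with RES 5 rose and 4 fell. These were 16.7%, 8.33%, 0%, 25% and 75% of the list, set against the all-gene shares given for signalling.

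Of 22 other tested FOXO targets, 4 rose and 2 fell between Con and the model, none passed at 0.5 μM FUCO and 2 fell at 1 μM. At 2 μM 3 rose and 5 fell, and with RES 4 rose and 11 fell. As shares of the list these were 27.3%, 0%, 9.09%, 36.4% and 68.2%, set against the all-gene shares given for signalling. PDK4, which spares glucose by blocking pyruvate dehydrogenase and which FOXO and fatty acids both induce, rose from 4.39 ± 0.312 CPM in Con to 11.4 ± 0.206 in the model (1.37 ± 0.12, adjusted p = 4.87e-08) and to 26.7 ± 0.329 with RES (1.23 ± 0.10, adjusted p = 4.87e-10). It fell at 2 μM FUCO (-0.47 ± 0.11, adjusted p = 0.00457). BCL6 fell in the model (-0.54 ± 0.12, adjusted p = 0.0019), and MXI1 rose at 2 μM (0.68 ± 0.16, adjusted p = 0.00318). CCNG2, a cyclin that FOXO factors induce, fell at 2 μM (-0.54 ± 0.12, adjusted p = 0.00159). Its fall at 1 μM (-0.41 ± 0.11, adjusted p = 0.0453) was lost in 7 of 13 alternatives. They included the fits without any 1 of the 6 libraries compared (range -0.47 to -0.33). GABARAPL1, an autophagy gene named after its values were seen, was the other that fell at 1 μM (-0.37 ± 0.096, adjusted p = 0.0287). APOC3, which slows the clearance of triglyceride and which FOXO1 induces, fell with RES from 27.2 ± 0.842 to 5.19 ± 1.60 CPM (-2.39 ± 0.20, adjusted p = 3.85e-10).

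Of 14 tested gluconeogenic genes, 2 rose and 4 fell between Con and the model, and 1 fell at 0.5 and at 1 μM FUCO. At 2 μM 2 rose and 3 fell, and with RES 3 rose and 8 fell. In this order 42.9%, 7.14%, 7.14%, 35.7% and 78.6% of the list passed, set against the all-gene shares given for signalling. The 1 gene at the lower doses was SIK1, a kinase induced by cAMP that restrains gluconeogenic transcription. It stood at 186, 187 and 185 CPM in the model and at 105, 96.7 and 102, then 108, 105 and 105, and then 138, 142 and 113 at the rising doses (-0.88 ± 0.076, adjusted p = 3.8e-08 at the lowest, -0.81 ± 0.076, adjusted p = 7.01e-08 at the middle and -0.51 ± 0.076, adjusted p = 4.25e-05 at the highest). PPARGC1A, the coactivator that works with FOXO1 on glucose production, fell in the model (-0.66 ± 0.13, adjusted p = 0.0011) and rose with RES (0.97 ± 0.13, adjusted p = 1.31e-06). PKLR, pyruvate kinase of the liver and the glycolytic counterpart, fell from 42.6 ± 3.93 to 3.01 ± 0.916 CPM with RES (-3.84 ± 0.23, adjusted p = 1.13e-12). GPT2 rose at 2 μM FUCO (0.47 ± 0.080, adjusted p = 0.000196). SLC37A4, the glucose 6-phosphate transporter, rose in the model (0.37 ± 0.098, adjusted p = 0.0107), a call lost without Con replicate 2, Con replicate 3 or model replicate 1 (range 0.29 to 0.50).

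Of 15 tested genes in the list of the glucocorticoid receptor and its targets, 8 rose and 2 fell between Con and the model. At 0.5 μM FUCO 2 fell, at 1 μM 1 rose and 2 fell, and at 2 μM 2 rose and 5 fell. With RES 6 rose and 7 fell. These were 66.7%, 13.3%, 20%, 46.7% and 86.7% of the list, set against the all-gene shares given for signalling. NR3C1, the receptor, passed only with RES of these comparisons (0.47 ± 0.086, adjusted p = 6.83e-05), and its values with FUCO were -0.04 ± 0.088, -0.09 ± 0.088 and 0.20 ± 0.087. DUSP1, a phosphatase that shuts off MAP kinases, was among the genes most correlated with CITED2. It stood at 165, 159 and 143 CPM without FFA, 277, 315 and 306 in the model and 139, 113 and 111, then 93.5, 86.9 and 95.5, and then 134, 102 and 127 at the rising doses. It rose in the model (0.94 ± 0.095, adjusted p = 2.04e-07). It fell at the lowest dose (-1.31 ± 0.096, adjusted p = 1.6e-09), the middle dose (-1.70 ± 0.097, adjusted p = 9.4e-12) and the highest dose (-1.31 ± 0.096, adjusted p = 2.38e-09). With RES it was -0.09 ± 0.093 (adjusted p = 0.465). ERRFI1, a feedback inhibitor of EGFR that was named after its values were seen, was the other of the 2 that fell at 0.5 μM (-0.63 ± 0.11, adjusted p = 0.00121), as it did at the middle dose (-0.67 ± 0.11, adjusted p = 0.000427). KLF15, a glucocorticoid-induced regulator of fasting metabolism, fell from 24.9 ± 3.61 to 13.99 ± 0.918 CPM in the model (-0.83 ± 0.13, adjusted p = 7.08e-05), rose to 26.9 ± 2.85 at 2 μM FUCO (0.94 ± 0.13, adjusted p = 1.49e-05) and fell to 7.21 ± 1.65 with RES (-0.96 ± 0.14, adjusted p = 5.04e-06), beside TSC22D3 at 0.10, -1.002 ± 0.12 and -0.63. MT2A, a metallothionein with near-identical paralogs, had 1, 0 and 1 counts in Con and 13, 21 and 10 in the model, a rise with an adjusted p of 0.00936. It rose at 1 μM FUCO (2.54 ± 0.40, adjusted p = 0.000255), at 2 μM (5.26 ± 0.33, adjusted p = 2.05e-10) and with RES (4.07 ± 0.35, adjusted p = 6.85e-10). ZBTB16 fell from 10.01 ± 1.06 to 1.03 ± 0.214 CPM with RES (-3.27 ± 0.22, adjusted p = 7.64e-12).

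Insulin induces lipogenic genes, the counterpart of those that it represses through FOXO. Of 8 tested, 6 fell and none rose between Con and the model, none passed at 0.5 μM FUCO and 1 fell at 1 μM. At 2 μM 1 rose and 4 fell, and with RES 1 rose and 7 fell. In this order 75%, 0%, 12.5%, 62.5% and 100% of the list passed, set against the all-gene shares given for signalling. ACLY, which makes acetyl-CoA for lipid synthesis, fell from 1156 ± 245 CPM in Con to 531 ± 10.6 in the model (-1.12 ± 0.10, adjusted p = 4.87e-08) and to 338 ± 13.1 with RES (-0.65 ± 0.10, adjusted p = 1.02e-05). ELOVL6, a fatty acid elongase, fell at 1 μM (-0.46 ± 0.083, adjusted p = 0.00142) and with 2 μM FUCO (-0.81 ± 0.084, adjusted p = 3.11e-07). PNPLA3 fell with RES (-1.54 ± 0.092, adjusted p = 9.51e-13). ME1, the cytosolic malic enzyme and a known thyroid hormone target, rose at 2 μM FUCO (0.92 ± 0.12, adjusted p = 4.51e-06) and with RES, from 36.5 ± 2.04 to 151 ± 10.5 CPM (2.04 ± 0.12, adjusted p = 3.82e-13).

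The step from 1 to 2 μM FUCO was tested directly. Of the 104 pathway genes 13 rose and 8 fell (20.2%, against 6.3% of all tested genes). Together they numbered 21, and 13 without FUCO-1 replicate 1, 9 without FUCO-1 replicate 3 and 11 without FUCO-2 replicate 2. TRIB1 (0.38 ± 0.10, adjusted p = 0.0243), SIK1 (0.31 ± 0.076, adjusted p = 0.0164) and DUSP1 (0.39 ± 0.096, adjusted p = 0.0142) were higher at 2 than at 1 μM, beside TSC22D3 at 0.33 (0.18 without FUCO-2 replicate 3), DEPP1 at 0.28 and CITED2 at 0.08. Each of these 3 calls was lost when some single libraries were left out, with values from 0.30 to 0.44 for TRIB1 (without FUCO-1 replicate 1 or 3 or FUCO-2 replicate 3), from 0.24 to 0.40 for SIK1 (without FUCO-1 replicate 3 or FUCO-2 replicate 2) and from 0.31 to 0.50 for DUSP1 (without FUCO-1 replicate 2 or FUCO-2 replicate 1). KLF15 (0.57 ± 0.13, adjusted p = 0.00707) and ME1 (0.73 ± 0.11, adjusted p = 0.000281) rose over the same step. The hepatocyte markers moved with it: 5 of 10 were lower at 2 than at 1 μM.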

How the data were processed

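RNA-seq libraries of Hep3B cells in 6 groups of 3 were used, each assigned by its title. All 18 columns of the count table bear the same prefix, con, whatever their group, and each was matched to its sample through the library name in that sample's description. RNA was enriched for polyadenylated transcripts. The authors trimmed reads with fastp, aligned them with STAR to GRCh38.p14, counted them per gene with featureCounts and deposited the counts per gene symbol without normalization. Whether the counting used strand, and how reads with several matches were treated, is not given in the sources used here. All columns held whole numbers.

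The 10 genes, the pathway lists and the rules were chosen with earlier results of these data known. Counts were analysed in R 4.3.3 with edgeR 4.0.16 (filterByExpr with minimum count 10 and minimum total 15, TMM, prior count 0.125, a single quasi-likelihood model of the 18 libraries by group, Benjamini-Hochberg adjustment over 14557 genes). The tested genes held 99.9% of all counts. The study's methods use DESeq2, run here as an alternative (version 1.42.0). A DEG also had an absolute log2 fold change over 1. The fit was tested on simulated counts. Pathway genes named singly were INSR, IGF1R, IRS1, FOXO4, NR3C1 and, per list and comparison with Con or the model, the largest rise and fall among genes with an adjusted p under 0.05, a level averaging 1 CPM or more and libraries that did not overlap. For each listed gene with a mean of at least 1 CPM the 2 most correlated genes were named. Some genes that these rules name are not reported here. Replicate libraries of each group differed by more than sampling noise.

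Gene positions are from RefSeq (GRCh38.p14) and exon lengths from GENCODE v44. Library totals of 16916688 to 23083498 counts set the precision. Without molecular identifiers, floors (3 counts) reflect counting error alone. Alternatives were DESeq2, RLE factors, no filter, at least 10 counts in every library, 2-group fits, a replicate block, a prior count of 2 and leaving out each library. A fit without RES and FOXO3 with FOXO3B counts added were chosen after seeing the data.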

Additional observations from a re-analysis of the deposited data

How the results depend on the processing

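The counts of genes past the test depended on the libraries and the fold threshold. When single libraries were left out, genes past the test ran from 1597 (without Con replicate 3) to 3047 (without Con replicate 1) between the model and Con, 2555 with all, from 110 (without model replicate 2) to 290 at 0.5 μM FUCO, 211 with all, from 220 (without model replicate 2) to 661 at 1 μM, 467 with all, from 1972 (without model replicate 3) to 3366 at 2 μM, 2990 with all, and from 366 (without FUCO-2 replicate 2) to 1228 between 2 and 1 μM, 917 with all. Counts also dropped by over 1.5 times between the model and Con without Con replicate 2 (1601) or model replicate 3 (1654), at 0.5 μM without model replicate 1 (114) or 3 (127) or FUCO-0.5 replicate 1 (118) or 2 (135), at 1 μM without model replicate 1 (266) or 3 (273) or FUCO-1 replicate 3 (300), and between 2 and 1 μM without FUCO-1 replicate 1 (569) or 3 (398). Pathway genes past the test ran from 4 to 8 (without FUCO-0.5 replicate 2) at 0.5 μM, and from 9 (without FUCO-1 replicate 3) to 27 between 2 and 1 μM. With an absolute log2 fold change over 1 as well, the 6 comparisons in the order of the report kept 284, 39, 72, 233, 1443 and 84 genes, and 6, 1, 3, 3, 22 and 1 pathway genes. Without the filter on low counts, 354 genes and 11 pathway genes passed at 0.5 μM and 13 pathway genes at 1 μM. With only the 2 groups compared, 351 genes and 9 pathway genes passed at 0.5 μM, 976 and 13 at 1 μM, and 533 and 13 between 2 and 1 μM. DESeq2 gave 8 pathway genes at 0.5 μM, and the fit without RES gave 13 between 2 and 1 μM. The cause of these differences was not tested. For the values of single genes, only libraries of the 2 groups compared were left out in turn, and the prior count of 2 was used for the listed genes only. Within these alternatives no value changed sign among the called pathway genes. Of the values of named pathway genes, 2325 kept their side of the threshold, 95 lost their call and 37 gained one. Calls lost when a library of another group was left out are not among these. Of those of the listed genes, 735 moved by less than the spread and 7 by more. The spread was the pooled SD of log2 CPM within the 2 groups compared. Leaving out 1 of 3 libraries seldom moves a group mean by that much, so nothing about stability is read from these numbers.

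Replicate numbers are shared by all groups. Correlations between same-numbered libraries, of their deviations from the group means, were small, from -0.16 to 0.16, both ends between 2 and 1 μM. All 3 were positive at 2 μM against the model (0.13, 0.097 and 0.094) and between the model and Con (0.071, 0.025 and 0.024). With the replicate number as a block, 2617, 235, 510, 3040, 7275 and 1012 genes and 38, 6, 9, 40, 69 and 25 pathway genes passed. Of the listed genes, IGFBP1 then also passed at 1 μM, and IGFBP1 and G6PC1 between 2 and 1 μM.

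Among the listed genes, some values whose interval held 0 turned sign when single libraries were left out, such as CITED2 between 2 and 1 μM (-0.06 to 0.17) and IGFBP1 at 2 μM (-0.23 to 0.07). Without Con replicate 1, the values between the model and Con were -0.47 for GRB10, -0.80 for PPARGC1A, -0.71 for KLF15 and -1.29 for ACLY. Depth limits G6PC1 and PCK1, which had at most 14 counts in any library. FFA concentration, RES dose and times are not known for these libraries.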
